A study of Homo sapiens with 95 samples.

Results

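This report follows 10 genes of the CDKN2A locus and the retinoblastoma (RB) pathway, out of the 23895 gene symbols counted in every well. The genes were taken by symbol: CDKN2A, CDKN2B and MTAP, which are neighbours on chromosome band 9p21, and CDK4, CDK6, CCND1, CCND3, RB1, CDKN2C and CDKN1B. All 10 passed the filter on low counts in every comparison. The cells were AALE, a human bronchial epithelial line whose immortalization, as background, used the early region of the virus SV40, the source of the large T antigen that binds RB. All populations therefore share that background. Expression was read by 3′ digital gene expression (3′DGE), in which a barcode marks the well, a unique molecular identifier (UMI) marks each captured molecule, and only the 3′ end of a polyadenylated transcript is sequenced. Values are given as CPM, the usual scaling of a gene's UMI count to the total UMI count of its well.

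Each of 8 cell populations was exposed to each of 4 chemicals. NRF2 (NFE2L2), FGFR1, NRG1 and PIK3CA were overexpressed, with an empty vector carrying the reporter HcRed (HCRED cells) as their control. FAT1 and CDKN2A were targeted by CRISPR knockout, with cells given the plasmid pSpCas9-EGFP (PX458) and no guide (GFP cells) as their control. DMSO was the vehicle. CSC, a condensate of cigarette smoke, was given at 24 µg/ml. BaP, the polycyclic hydrocarbon benzo[a]pyrene, was given at 173 µM, and NNK, a nitrosamine found in tobacco, at 490 µM. The labels did not give clone numbers, guide sequences or the promoters of the vectors. Of 95 wells, 82 carried a 1-digit replicate number and entered the comparisons, and 25 of their 31 groups held 3 wells. The study calls the wells of a condition biological replicates. No source used here said that they came from separate cultures. The p-values thus measure only the spread between wells, which may be technical and which the fits pooled largely over genes. In bulk RNA, fewer cells with a transcript and less transcript per cell cannot be told apart.

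The RB pathway controls entry into DNA synthesis. D-type cyclins (CCND1, CCND2, CCND3) bind the kinases CDK4 and CDK6, and these phosphorylate RB1 and its relatives, which then release E2F transcription factors that drive genes of DNA replication. The INK4 proteins p16INK4a (from CDKN2A), CDKN2B and CDKN2C bind CDK4 and CDK6 and block them, while CDKN1B (p27) acts mainly on cyclin E and cyclin A complexes with CDK2. CDKN2A also encodes p14ARF, which restrains MDM2. MTAP encodes methylthioadenosine phosphorylase, an enzyme of the methionine salvage pathway, and is often lost together with CDKN2A in tumours.

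Total counts of the 82 wells ran from 692446 to 1895735, with means of 1427513 under DMSO, 1290086 under CSC, 1213795 under BaP and 1180450 under NNK. Each plate row held wells of 1 chemical and each population kept the same columns, so that neither chemical nor population can be told apart from plate position. The well barcodes differed too, with a mean of 1.00 G or C base under DMSO, 1.24 under CSC, 4.74 under BaP and 5 under NNK. The library of NRG1 cells labelled NNK well 2 stood apart from its group, with a chi-square per degree of freedom of 11.8 and 11.3 against the other wells of its group, where the other 74 pairs had at most 2.89. The highest of these, 2.76 and 2.89, were the pairs of well 2 of the CDKN2A cells under DMSO. Summed CPM of 10 basal bronchial epithelial markers ran from 438.5 to 1339, while those of 8 fibroblast, 8 leukocyte, 6 endothelial and 6 ciliated or secretory airway markers (5 of these 6 listed in the files) reached at most 15.8, 10.8, 8.14 and 0.883. The T cell marker CD3E, the B cell markers CD79A and MS4A1, the endothelial markers VWF and CDH5, and the airway markers FOXJ1, SCGB3A1 and MUC5B were at 0 in all 82 wells.

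CDKN2A lies on the minus strand at chr9:21967751-21995300 of hg19, between MTAP on the plus strand (chr9:21802635-21937650) and CDKN2B on the minus strand (chr9:22002902-22009304). The annotated gene bodies of MTAP and CDKN2A are 30101 bases apart, and those of CDKN2A and CDKN2B 7602 bases apart. CDKN2A has separate promoters and first exons for its p14ARF and p16INK4a transcripts, which share their later exons and 3′ end. A 3′ count is thus a sum over both transcripts, and neither can be read alone here. The promoters at the starts of both transcripts are shown because the CDKN2A level adds them together, and those at the starts of CDK6 because this gene fell under every chemical. The sequences are from RefSeq on GRCh38.p14, all on the minus strand, with 250 bases before and 50 after the start. Capitals mark the letters GCGTG, the core of the element bound by the aryl hydrocarbon receptor, or their reverse complement CACGC.

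CDKN2A, upstream start (p14ARF), chr9:21995275-21995574: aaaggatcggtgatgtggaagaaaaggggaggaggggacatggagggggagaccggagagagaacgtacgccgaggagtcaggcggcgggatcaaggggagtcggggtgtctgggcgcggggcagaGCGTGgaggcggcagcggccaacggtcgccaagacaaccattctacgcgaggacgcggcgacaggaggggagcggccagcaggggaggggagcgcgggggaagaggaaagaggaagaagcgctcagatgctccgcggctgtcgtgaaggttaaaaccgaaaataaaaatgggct
CDKN2A, downstream start (p16INK4a), chr9:21974808-21975107: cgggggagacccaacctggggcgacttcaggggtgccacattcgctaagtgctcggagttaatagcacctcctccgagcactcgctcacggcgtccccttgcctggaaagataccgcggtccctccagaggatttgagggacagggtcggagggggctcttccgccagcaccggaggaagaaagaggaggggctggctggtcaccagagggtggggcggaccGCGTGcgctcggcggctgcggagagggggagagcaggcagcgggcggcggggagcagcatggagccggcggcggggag
CDK6, upstream start, chr7:92836524-92836823: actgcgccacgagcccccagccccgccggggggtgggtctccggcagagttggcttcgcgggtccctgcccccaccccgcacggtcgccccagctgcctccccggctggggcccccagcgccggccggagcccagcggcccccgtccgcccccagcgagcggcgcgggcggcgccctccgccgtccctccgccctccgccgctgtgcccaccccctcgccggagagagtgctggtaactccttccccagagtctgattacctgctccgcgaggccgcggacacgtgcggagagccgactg
CDK6, downstream start, chr7:92833910-92834209: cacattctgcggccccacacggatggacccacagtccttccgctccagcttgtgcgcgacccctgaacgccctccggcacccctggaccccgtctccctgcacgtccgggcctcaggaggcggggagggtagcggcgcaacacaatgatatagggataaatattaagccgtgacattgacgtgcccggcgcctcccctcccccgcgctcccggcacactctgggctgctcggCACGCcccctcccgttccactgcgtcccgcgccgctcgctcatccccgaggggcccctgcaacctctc

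RefSeq promoters were found for 9 of the 10 genes, 15 in all. Both CDKN2A promoters are rich in CpG, with 28 and 26 CG pairs against a median of 14 over 34943 promoters of 300 bases. The CDK6 promoters hold 37 and 29. GCGTG or CACGC was found in 7 of the 15 promoters, of CDKN2A, CDK6, CCND3, CDKN2C and CDKN1B, against 36.5% of all promoters. The E2F letters TTTCGCGC, TTTGGCGC, TTTCCCGC and TTTGCCGC, on either strand, were found in none of the 15 promoters and in 3.30% of all. RB1 had 1 of the 15 promoters, with 0 CG pairs and 38.3% G or C bases. It belongs to an alternative start inside the gene body. The main start of RB1 was not searched, so its CG pairs and E2F letters are not known from this search. The E-box CACGTG was found in 4 of the 15 promoters, 3 times in that of CDK4 and once each in the upstream CDK6 promoter and in both of CDKN2C, and in 7.23% of all promoters.

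A 3′ count does not grow with transcript length, so levels of different genes can be set side by side as molecules captured. Across all 82 wells MTAP was counted most often of the 3 locus genes, with a mean of 98.5 CPM, followed by CDKN2A at 24.0 and CDKN2B at 7.44. Counts per well ran from 45 to 194 for MTAP, from 13 to 58 for CDKN2A, from 10 to 121 for CCND1 and from 2 to 95 for CDK6. They were lowest for CDKN1B, at 1 to 15, CDKN2B, at 0 to 26, and CDKN2C, at 4 to 24. The antisense RNA CDKN2B-AS1, which overlaps CDKN2A and CDKN2B on the other strand, had 131 counts in all 82 wells against 2516 for CDKN2A. Of the other members, CDK4 overlaps TSPAN31 (mean 11.5 CPM), RB1 overlaps RCBTB2 (5.98) and LPAR6 (4.40), and CDKN1B overlaps GPR19 (2.17), each on the other strand. Whether counting used strand was not given in the sources used here.

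Under DMSO, 5 of the 10 genes differed among the 8 populations in the edgeR quasi-likelihood F test, namely CCND1 (adjusted p = 5.89e-46), MTAP (adjusted p = 1.37e-11), CDKN2A (adjusted p = 0.000462), CDK4 (adjusted p = 0.000636) and RB1 (adjusted p = 0.00253). Over all 11595 genes tested, 40.3% differed, so a count of 5 in 10 is near the background. CDKN2B (adjusted p = 0.267), CDK6 (0.0956), CCND3 (0.105), CDKN2C (0.0947) and CDKN1B (0.169) did not pass. The plot of DMSO wells shows CDKN2A, MTAP, CCND1 and RB1 in each population.

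**Figure D1:**
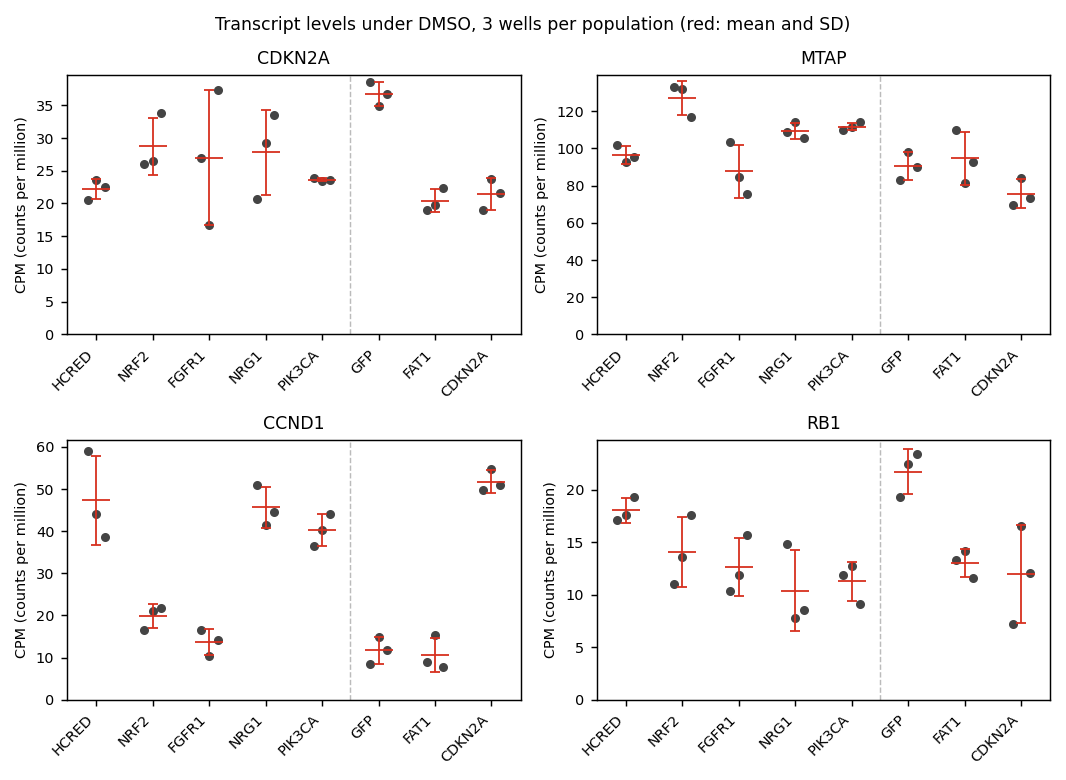
CPM of CDKN2A, MTAP, CCND1 and RB1 (y axes, from 0) in the 3 DMSO wells of each of 8 populations (x axes; overexpression left and CRISPR right of the dashed line). Points are wells and red marks are the mean and SD; for CCND1 the 12 wells of HCRED, NRG1, PIK3CA and CDKN2A cells lie between 36.4 and 59.0 and the other 12 between 7.72 and 21.8.

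CDKN2A, the targeted gene of the knockout, was first read in every DMSO population. The knockout cells had 19.0, 23.8 and 21.6 CPM, their GFP control 38.6, 34.9 and 36.7, and the FAT1 knockout 19.0, 19.8 and 22.4. HCRED cells had 20.5, 23.5 and 22.5 CPM. All GFP wells lay above all wells of CDKN2A, FAT1 and HCRED cells, and the wells of the last 3 overlapped. By mean the order was GFP at 36.7 ± 1.86 (SD, n = 3), NRF2 at 28.8 ± 4.36, NRG1 at 27.8 ± 6.53, FGFR1 at 27.0 ± 10.3, PIK3CA at 23.6 ± 0.191, HCRED at 22.2 ± 1.52, CDKN2A at 21.4 ± 2.40 and FAT1 at 20.4 ± 1.74. Every neighbouring pair in this order below GFP overlapped.

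CDKN2A transcript was thus lower in CDKN2A cells than in GFP cells (log2 fold change -0.89, SE 0.21, adjusted p = 0.000853 by limma-voom), but nearly as much lower in FAT1 cells, which were not targeted there (log2 fold change -0.80, SE 0.20, adjusted p = 0.00202). GFP cells were themselves above HCRED cells by 0.76 on the log2 scale (SE 0.19, adjusted p = 0.00552). Against HCRED cells the difference of the knockout in CDKN2A did not pass (log2 fold change -0.13, 95% interval -0.59 to 0.32, adjusted p = 0.774). With DMSO, BaP and NNK wells in the fit (15 wells), the difference of CDKN2A from GFP cells was smaller, at -0.70 (adjusted p = 0.000153 by limma-voom). CSC was left out of this fit, since CDKN2A cells had no 1-digit CSC well. With all chemicals in the fit (24 wells), the difference of FAT1 from GFP cells was -0.46 (adjusted p = 0.000802). The comparisons against GFP share their control wells. A guide that cuts coding sequence need not lower a 3′ count, so that the transcript does not check the label of the knockout.

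With the chemicals pooled as a covariate, the difference of GFP from HCRED cells in CDKN2A shrank to 0.26 on the log2 scale and lost its call. In the wells under CSC, BaP and NNK the GFP cells had 24.2 to 43.1, 24.5 to 34.6 and 24.6 to 27.4 CPM, and their separation from other populations seen under DMSO was not kept. The 5 genes most like CDKN2A over the 25 groups of 3 wells, by Pearson correlation of mean log2 CPM among 3952 genes, were MFAP5 (r = 0.68), SMARCA2 (0.67), PCM1 (0.67), LOC100505633 (0.67) and TOP2A (0.67). Among the members, CDKN2A went most closely with CDK6 (r = 0.58) and RB1 (0.55), and its correlation with the other members was lower. These are descriptions over group means, each of its own wells, among which populations, chemicals and plate rows recur.

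MTAP, the nearest telomeric gene on the list, was lowest in the CDKN2A cells. Its DMSO wells there had 69.7, 84.2 and 73.1 CPM, against 101.8, 92.6 and 95.3 in HCRED cells and 83.1, 98.0 and 90.2 in GFP cells. All CDKN2A wells lay below all HCRED wells, while they overlapped those of GFP cells. The difference from HCRED cells was -0.42 on the log2 scale (SE 0.15, adjusted p = 0.0449), and that from GFP cells -0.37 (SE 0.15, adjusted p = 0.0770). With DMSO, BaP and NNK wells in the fit the difference from GFP passed by limma-voom (-0.45, SE 0.10, adjusted p = 0.000163). The call against HCRED was lost in 8 of 13 alternatives, with log2 fold changes of -0.52 to -0.38 over all of them. With all wells present it was lost by DESeq2 (adjusted p = 0.0848), with median-ratio size factors (adjusted p = 0.0555 by limma-voom) and without a filter on the mean count (adjusted p = 0.0888), and it was lost without any 1 of HCRED wells 1, 2 and 3 or CDKN2A wells 1 and 3. In the BaP wells of CDKN2A cells MTAP was 61.4 and 53.4 CPM, and in their only 1-digit NNK well 65.2.

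MTAP was highest in NRF2 cells, at 133.0, 132.0 and 116.8 CPM, above every other DMSO well. NRF2, encoded by NFE2L2, is the transcription factor of the antioxidant response. The difference from HCRED cells was 0.49 (log2, SE 0.11, adjusted p = 0.000996). With all chemicals in the fit it was 0.11 and not called. PIK3CA cells at 111.8 ± 2.03 CPM (SD, n = 3) and NRG1 cells at 109.4 ± 4.41 followed, and both stayed apart from the next population, HCRED at 96.6 ± 4.73. The NRG1 wells (105.4 to 114.1) overlapped those of FAT1 cells (81.6 to 109.8), which ranked below HCRED cells by mean.

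CDKN2B, the INK4 gene next to CDKN2A, passed the test in none of the 11 comparisons of groups by limma-voom. Its DMSO means ran from 5.56 CPM in PIK3CA to 9.89 in FAT1 cells, and all neighbours in that order overlapped. Its log2 fold changes between populations lay between -0.58 (CDKN2A against GFP, adjusted p = 0.279) and 0.66 (GFP against HCRED, adjusted p = 0.314). With DMSO, BaP and NNK wells in the fit it was lower in CDKN2A than GFP cells, by -0.94 (SE 0.32, adjusted p = 0.0153). The list of 9p21 neighbours held 15 genes, of which 13 were listed in the files and 10 were tested. In CDKN2A against GFP cells, where 17.9% of all genes were called, CDKN2A and FOCAD (-0.94, SE 0.26, adjusted p = 0.00409) were lower and none was higher. The list had a median of -0.76 there, against 0.03 over all genes. In CDKN2A against HCRED cells, where 14.0% of all genes were called, only MTAP of this list was lower, with a median of -0.43 against -0.0022. The counts of called genes of this list were thus near the background. In FAT1 against GFP cells, where 14.1% of all genes were called, CDKN2A and PTPLAD2 (-2.14, SE 0.52, adjusted p = 0.00135) were lower.

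CCND1, which encodes cyclin D1, divided the populations. DMSO wells of CDKN2A cells had 49.6, 54.7 and 50.9 CPM, those of HCRED cells 59.0, 44.1 and 38.7, those of NRG1 cells 51.1, 41.5 and 44.5 and those of PIK3CA cells 36.4, 40.3 and 44.1. NRF2 cells had 16.5, 21.1 and 21.8 CPM, FGFR1 cells 16.6, 10.5 and 14.1, GFP cells 8.39, 15.0 and 11.7, and FAT1 cells 8.89, 15.3 and 7.72. Within each set of 4, neighbours in order overlapped, while PIK3CA wells lay below all CDKN2A wells. No well of the first set overlapped the second.

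Against their controls, CCND1 rose in CDKN2A cells (log2 fold change 2.03 over GFP, SE 0.26, adjusted p = 3.44e-10) and fell in NRF2 cells (-1.11 from HCRED, SE 0.20, adjusted p = 2.62e-05) and FGFR1 cells (-1.76, SE 0.24, adjusted p = 4.87e-10). GFP cells were below HCRED cells by as large a step (-1.93, SE 0.25, adjusted p = 9.12e-08). The difference of CDKN2A from HCRED cells in CCND1 did not pass (0.09, 95% interval -0.26 to 0.44, adjusted p = 0.810), nor did that of FAT1 from GFP cells (-0.07, 95% interval -0.68 to 0.54, adjusted p = 0.922). The call for CCND1 in CDKN2A cells thus depended on the control.

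The same split was looked up under the other chemicals, in wells that did not define it. Under CSC, CDKN2A cells had no 1-digit well. The rest of the first set had 39.3 to 65.2 CPM in 7 wells, and the other 4 populations had 14.4 to 33.9 in 10. Under BaP the ranges were 32.8 to 64.1 in 9 wells and 8.57 to 19.1 in 10. Under NNK they were 16.9 to 82.0 in 10 wells and 8.99 to 23.9 in 12, and here PIK3CA wells overlapped the lower set. Chosen after their values were seen, the genes most like CCND1 over the 25 groups were CTSC (r = 0.92), STIP1 (0.84), LETM2 (0.83), MKI67IP (0.82) and TMEM138 (0.82).

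**Figure D2:**
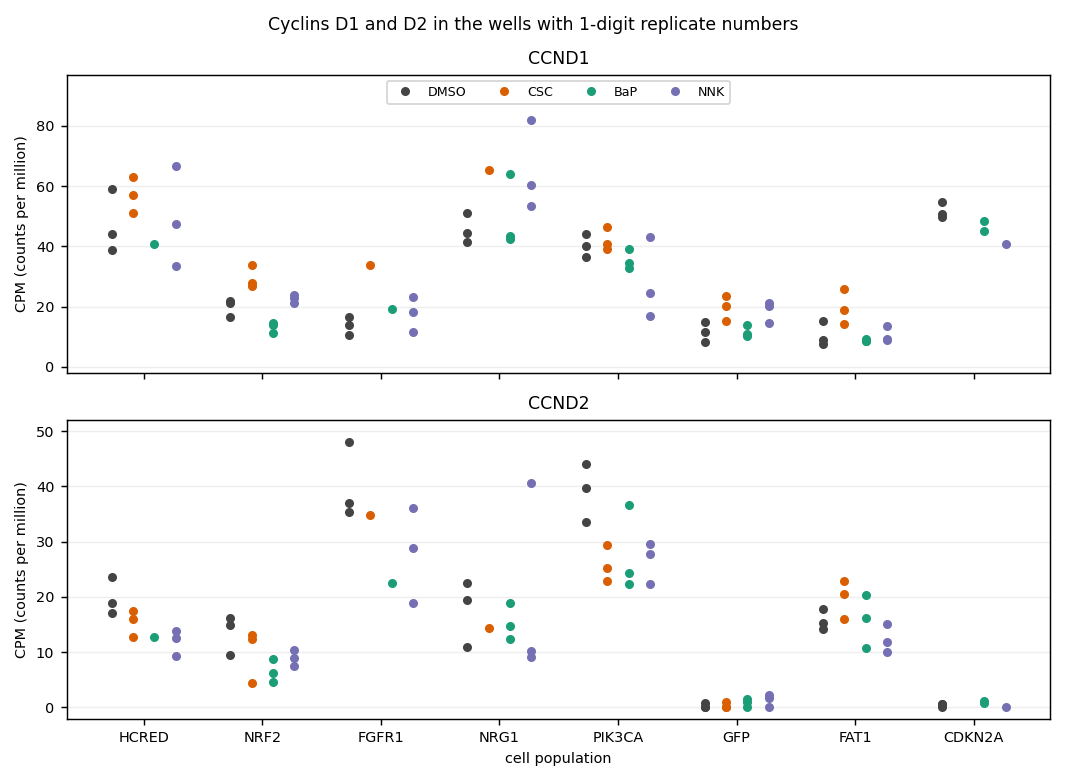
CPM of CCND1 (top) and CCND2 (bottom) on the y axes in all 82 wells, by population (x axis) and chemical (colours), each point 1 well. CCND1 is high in HCRED, NRG1, PIK3CA and CDKN2A cells; CCND2 is at most 2.23 CPM in every well of GFP and CDKN2A cells and at least 4.52 in every well of the other populations.

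CCND2, cyclin D2, was not a member but belongs to the list of D cyclins and their kinases, and it split the populations another way. It had 4 counts in all in the 6 wells of CDKN2A cells and 9 in the 12 wells of GFP cells, with 0 counts in 2 and 6 of them. Under DMSO, HCRED cells had 76 counts in 3 wells, against 1 in GFP and 2 in CDKN2A cells, a ratio of CPM of 74.8 (95% exact interval 13.0 to 2993) and 47.3 (12.6 to 397.6), which covers counting error only. FAT1 cells, the other CRISPR population, had 72 counts, 58.4 times the CPM of GFP cells (10.2 to 2337). FGFR1 and PIK3CA cells were above HCRED cells, by 0.98 (log2, SE 0.22, adjusted p = 0.00303) and 1.02 (SE 0.20, adjusted p = 0.000252). CDKN2A cells thus overlapped HCRED cells in CCND1 and GFP cells in CCND2.

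The third D cyclin, CCND3, passed in none of the 11 comparisons. By mean it was lowest in FAT1 cells at 12.1 ± 0.228 CPM (SD, n = 3), below all wells of the next population, NRG1 at 13.3 ± 0.616. The lowest well of CDKN2A cells, at 11.7, was below the FAT1 wells. CCND3 was highest in NRF2 cells at 21 ± 3.09. With all chemicals in the fit CCND3 was lower in FAT1 than GFP cells, by -0.64 (SE 0.14, adjusted p = 0.000150).

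The kinases were lowest in the CDKN2A cells. CDK4 had 19.5, 17.3 and 17.2 CPM there against 27.7, 19.9 and 30.1 in GFP and 20.5, 27.9 and 20.9 in HCRED cells. All wells of CDKN2A cells were below all wells of both controls, yet the differences did not pass in the main fits. They were -0.61 against GFP (SE 0.24, adjusted p = 0.0590) and -0.42 against HCRED (SE 0.24, adjusted p = 0.253). With DMSO, BaP and NNK wells in the fit both passed, at -0.63 (SE 0.17, adjusted p = 0.00230) and -0.49 (SE 0.18, adjusted p = 0.0354). The difference from GFP passed in further limma-voom settings, but neither passed by edgeR or DESeq2. CDK6 had 7.81, 23.8 and 8.93 CPM in CDKN2A cells, so well 2 stood with the controls. Against HCRED cells, with 20.5, 30.1 and 17.0 CPM, CDK6 was lower by -0.97 (SE 0.27, adjusted p = 0.00709). Against GFP cells, with 15.9, 17.4 and 22, it was -0.76 (SE 0.29, adjusted p = 0.0519). The call against HCRED was lost by DESeq2 (adjusted p = 0.125), without HCRED well 2 and without CDKN2A well 1 or 3, with values of -1.39 to -0.69 over the alternatives. The difference from GFP passed without CDKN2A well 2 (-1.15, SE 0.31, adjusted p = 0.00469). It also passed with median-ratio size factors (-0.76, SE 0.28, adjusted p = 0.0443) and with DMSO, BaP and NNK wells in the fit (-1.01, SE 0.23, adjusted p = 0.000276).

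RB1 was highest in GFP cells, at 19.3, 22.4 and 23.5 CPM, and next in HCRED cells, at 17.1, 17.6 and 19.4. CDKN2A cells had 7.25, 16.6 and 12.1 CPM, all below every GFP and HCRED well. RB1 fell in CDKN2A against GFP cells (-1.06, SE 0.27, adjusted p = 0.00237), a call that was lost without CDKN2A well 1 (log2 fold change -0.76). Differences of the other populations had the same sign without passing: -0.66 in FAT1 against GFP (adjusted p = 0.0564), and against HCRED -0.75 in CDKN2A (0.0560), -0.77 in NRG1 (0.121), -0.60 in PIK3CA (0.209), -0.54 in FGFR1 (0.600) and -0.27 in NRF2 (0.686). These comparisons share their control wells. Of the relatives of RB1, RBL1 was lower in CDKN2A than HCRED cells (-1.01, SE 0.27, adjusted p = 0.00416).

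Of the remaining inhibitors, CDKN2C (p18INK4c) was higher in GFP than HCRED cells, with 12.6, 12.5 and 13.9 against 5.15, 10.3 and 3.10 CPM and no overlap (1.21, SE 0.37, adjusted p = 0.0232). That call was lost in a single fit over all groups (adjusted p = 0.0515) and without HCRED well 1 or 3 or GFP well 3, DESeq2 gave no adjusted p for it, and the log2 fold change ran from 0.58 to 1.67 over the alternatives. CDKN1B had DMSO means of 3.54 to 7.63 CPM, rested on at most 13 counts in a DMSO well and passed in none of the 11 comparisons. With DMSO, BaP and NNK wells in the fit it was lower in CDKN2A than GFP cells, by -1.11 (SE 0.38, adjusted p = 0.0170).

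The members called by limma-voom were 3 of 10 in CDKN2A against GFP cells, where 17.9% of all genes were called, and 2 in CDKN2A against HCRED cells, where 14.0% were. They were 1 in FAT1 against GFP (14.1% of all genes) and 3 in GFP against HCRED (10.8%). Of the overexpression populations against HCRED, NRF2 had 2 (4.91%), FGFR1 had 1 (0.914%), and NRG1 and PIK3CA had 0 (3.08% and 5.40%). At an unadjusted p under 0.05 NRG1 cells had 2 members, MTAP and RB1, and PIK3CA cells the same 2, while edgeR and DESeq2 called 0 in either population after adjustment, DESeq2 giving no adjusted p for 9 members in NRG1 and 6 in PIK3CA cells, RB1 among both. The plot of all members and comparisons gives each value.

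**Figure D3:**
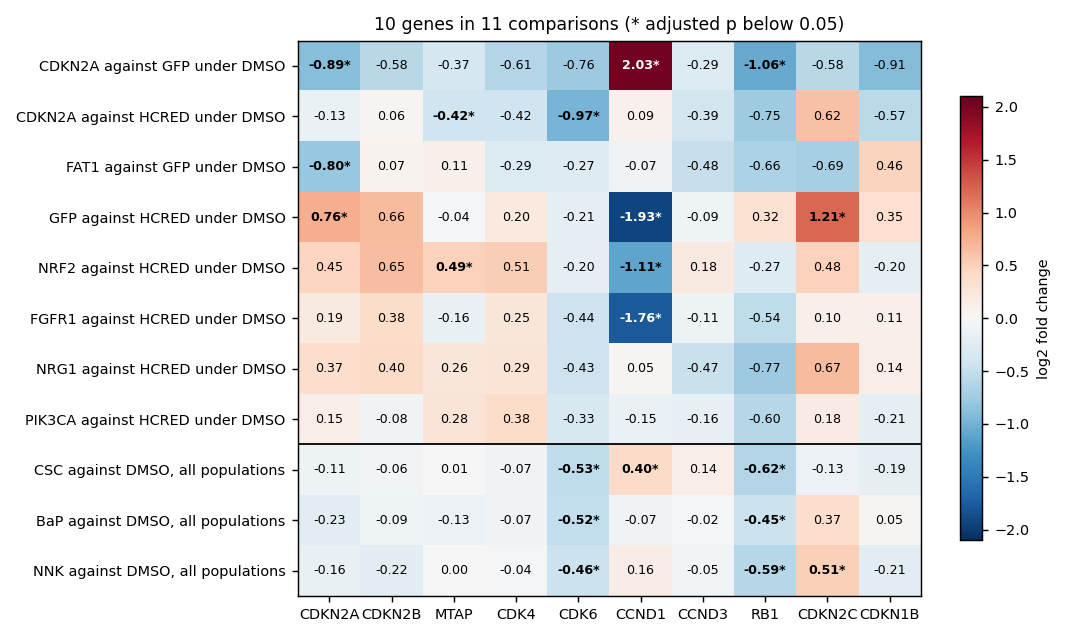
Log2 fold changes (colour and printed value) of the 10 genes (columns) in 8 comparisons of populations under DMSO (above the line) and 3 of chemicals across populations (below). Bold values with * passed an adjusted p of 0.05 by limma-voom; CCND1 spans -1.93 to 2.03, and CDK6 and RB1 are negative and starred in all 3 chemical rows.

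Genes further down the pathway were read from lists. Of 17 tested E2F target genes of replication, 2 were higher in CDKN2A than GFP cells, RRM2 (0.91, SE 0.16, adjusted p = 5.56e-06), a subunit of ribonucleotide reductase, and TK1 (0.60, SE 0.20, adjusted p = 0.0252), and 5 were lower, led by MCM7 of the replicative helicase (-0.99, SE 0.16, adjusted p = 4.00e-07) and RRM1 (-0.67, SE 0.12, adjusted p = 7.61e-06). MCM7 and RRM1 were also the 2 genes of this list lower in CDKN2A than HCRED cells, by -0.63 (SE 0.16) and -0.45 (SE 0.13), and none was higher. In FAT1 against GFP cells 5 were lower, led by POLA1 (-1.16, SE 0.23, adjusted p = 9.39e-05), and none higher. The controls differed too. In GFP against HCRED cells 3 were higher, MCM7 (0.37, SE 0.12, adjusted p = 0.0363) and RRM1 (0.23, SE 0.08, adjusted p = 0.0499) among them. RRM2 was lower there (-0.52, SE 0.15, adjusted p = 0.0157). Of all genes, 17.9%, 14.0%, 14.1% and 10.8% were called in these comparisons, which share control wells. The medians of the list were -0.32, -0.08, -0.21 and 0.14, against 0.03, -0.0022, -0.01 and -0.02 over all genes.

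Among E2F and DP factors TFDP2 was higher in CDKN2A cells than in GFP cells (2.07, SE 0.21, adjusted p = 7.17e-14) and than in HCRED cells (0.90, SE 0.17, adjusted p = 1.84e-05). In CDKN2A against GFP cells E2F6 was higher too (1.67, SE 0.58, adjusted p = 0.0299) and E2F8 lower (-1.43, SE 0.52, adjusted p = 0.0435), among 9 tested. EZH2, the Polycomb methyltransferase known to silence the locus, was lower in CDKN2A than GFP cells (-1.22, SE 0.30, adjusted p = 0.00123) and higher in GFP than HCRED cells (0.84, SE 0.28, adjusted p = 0.0393). MAT2A, which makes S-adenosylmethionine and belongs to the MTAP-linked methylation genes, was higher in CDKN2A cells against GFP (1.02, SE 0.29, adjusted p = 0.00724) and HCRED cells (1.17, SE 0.30, adjusted p = 0.00249). Of the ARF axis, CDKN1A (p21) was higher in CDKN2A than HCRED cells (0.83, SE 0.27, adjusted p = 0.0224) and in GFP than HCRED cells (0.89, SE 0.26, adjusted p = 0.0158), and MDM2 in FAT1 than GFP cells (0.99, SE 0.18, adjusted p = 1.62e-05). NPM1, a nucleolar partner of p14ARF, was higher than in HCRED cells in NRF2 (0.37, SE 0.03), PIK3CA (0.47, SE 0.03) and NRG1 cells (0.17, SE 0.03). CDKN1C (p57) was lower in CDKN2A than GFP cells (-1.38, SE 0.44, adjusted p = 0.0160) and higher in FAT1 than GFP cells (1.18, SE 0.30, adjusted p = 0.00256) and in FGFR1 than HCRED cells (1.40, SE 0.34, adjusted p = 0.00862).

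Basal epithelial markers were called in each comparison of populations. Of 10 tested, 2 were lower and 1 higher in CDKN2A than GFP cells (17.9% of all genes called), 4 and 1 in CDKN2A than HCRED cells (14.0%), 6 and 1 in FAT1 than GFP cells (14.1%), and 3 and 0 in GFP than HCRED cells (10.8%). Against HCRED cells, 3 were lower and 1 higher in NRF2 cells (4.91%), 4 and 1 in FGFR1 cells (0.914%), 5 and 0 in NRG1 cells (3.08%), and 5 and 1 in PIK3CA cells (5.40%). Their summed level had a median over all wells of 1082 CPM in HCRED, 1049 in NRF2, 801.3 in GFP, 799.7 in FGFR1, 703.5 in NRG1, 641.9 in CDKN2A, 607.6 in PIK3CA and 504.3 in FAT1 cells. Their part in the results above was not tested.

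The second question was how the chemicals moved these genes across populations. CDK6 and RB1 fell under each of the 3 chemicals, CCND1 rose under CSC, and CDKN2C rose under NNK. CDKN2A, CDKN2B, MTAP, CDK4, CCND3 and CDKN1B passed under none. CSC was tested in 15 wells against 15 DMSO wells of HCRED, PIK3CA, GFP, NRF2 and FAT1 cells, BaP in as many of PIK3CA, GFP, NRF2, NRG1 and FAT1 cells, and NNK in 21 against 21 wells of all populations but CDKN2A. The 3 comparisons share DMSO wells.

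Over all genes, 5.81% passed under CSC (2.95% higher and 2.86% lower), 9.16% under BaP (5.04% higher and 4.12% lower) and 7.22% under NNK (3.07% higher and 4.15% lower). Without NRG1 NNK well 2, 19.9% passed under NNK, 2245 genes, with the same 3 members, CDK6, RB1 and CDKN2C. Of the 10 members, 1 was higher and 2 lower under CSC, 0 higher and 2 lower under BaP, and 1 higher and 2 lower under NNK.

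CDK6 had a median of 17.5 CPM in the DMSO wells of the CSC comparison (11.4 to 30.1) and 11.4 under CSC (7.82 to 24.8). Under BaP the median was 10.4 CPM (6.28 to 18.9) against 16.5 in its DMSO wells (11.4 to 23.8). Under NNK it was 11.5 (3.70 to 64.4) against 16.6 (11.4 to 30.1). The highest NNK value, 64.4, is that of NRG1 well 2. The ranges overlapped across populations, and within populations all treated wells lay below all DMSO wells in 3 of 5 under CSC, 1 of 5 under BaP and 4 of 7 under NNK. For CDK6 and the members below, the share of all genes separated in this way was not counted, so such counts are descriptions only.

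The log2 fold changes of CDK6 were -0.53 under CSC (SE 0.13, adjusted p = 0.00338), -0.52 under BaP (SE 0.13, adjusted p = 0.00422) and -0.46 under NNK (SE 0.14, adjusted p = 0.0235). CDK6 was lower in 5 of 5, 5 of 5 and 6 of 7 populations, with NRG1 under NNK the exception. Without NRG1 NNK well 2 the NNK value was -0.64 (SE 0.12, adjusted p = 1.47e-05). Leaving out all wells of 1 replicate number ended the call without replicates 2 and 3 under CSC, 3 under BaP and 1 and 3 under NNK, while the sign stayed negative in all of these fits. DESeq2 ended the NNK call too (-0.48, adjusted p = 0.0615).

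RB1 had a median of 14.2 CPM in the DMSO wells of the CSC comparison (9.12 to 23.5) and 10.5 under CSC (2.20 to 19.7). Under BaP it was 9.91 CPM (6.44 to 17.0) against 13.3 (7.78 to 23.5), and under NNK 8.63 (4.62 to 31.2) against 13.6 (7.78 to 23.5). Among the members RB1 under NNK was separated in the most populations, with all NNK wells below all DMSO wells in 6 of 7. The exception was NRG1, with 6.78, 31.2 and 9.92 CPM under NNK against 14.9, 7.78 and 8.53 under DMSO, where NNK well 3 lay within and well 2 above the range of the DMSO wells. Under CSC 2 of 5 and under BaP 1 of 5 populations were separated in this way.

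The log2 fold changes of RB1 were -0.62 under CSC (SE 0.14, adjusted p = 0.00104), -0.45 under BaP (SE 0.13, adjusted p = 0.0194) and -0.59 under NNK (SE 0.14, adjusted p = 0.00184). Without NRG1 NNK well 2 the NNK value was -0.74 (SE 0.13, adjusted p = 4.07e-06). The calls were lost without replicate 3 under CSC, without replicate 1, 2 or 3 or in a single fit over all groups under BaP and without replicate 1 or 3 under NNK.

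**Figure D4:**
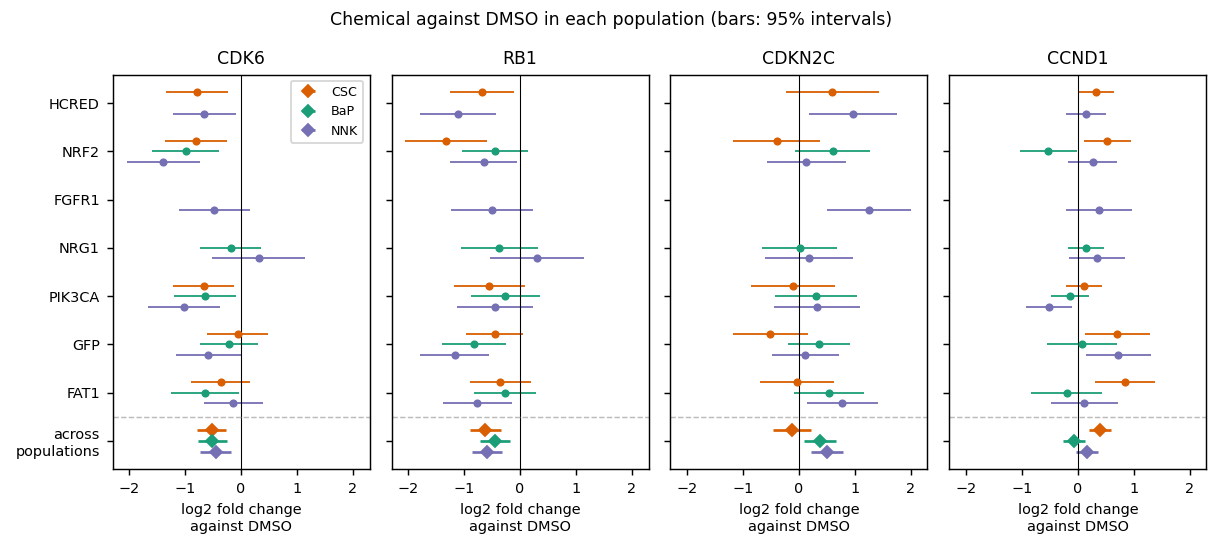
Log2 fold change against DMSO (x axes, bars are 95% intervals) of CDK6, RB1, CDKN2C and CCND1 in each population with 3 wells per group (circles) and across populations (diamonds, bottom row), coloured by chemical. CDK6 and RB1 lie left of 0 in every population except NRG1 under NNK, CDKN2C lies right of 0 in all 7 populations under NNK, and CCND1 lies right of 0 in all 5 under CSC.

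CDKN2C moved the other way under NNK, from a DMSO median of 7.60 CPM (2.79 to 13.9) to 10.4 (4.77 to 22.3), or 0.51 on the log2 scale (SE 0.15, adjusted p = 0.0176). It was higher in 7 of 7 populations, most in FGFR1 cells (1.25, 95% interval 0.51 to 2.0) and least in GFP cells (0.12, 95% interval -0.48 to 0.71), although the wells were apart in 1 population only. Under BaP the value was 0.37 (SE 0.14, adjusted p = 0.0943), positive in 5 of 5 populations. With the 2-digit wells summed and included BaP passed as well (0.52, SE 0.13, adjusted p = 0.00169). Under CSC it was -0.13 (SE 0.17, adjusted p = 0.795). The NNK call was lost without replicate 1 and held without NRG1 NNK well 2 (0.55, SE 0.14, adjusted p = 0.00316).

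CCND1 rose under CSC from a DMSO median of 21.1 CPM (7.72 to 59.0) to 27.8 (14.4 to 63.0), or 0.40 (SE 0.10, adjusted p = 0.00362). It was higher in 5 of 5 populations, by 0.84 in FAT1 and 0.71 in GFP cells, which had the lowest DMSO levels, and by 0.11 in PIK3CA cells. The wells were apart in 2 of the 5. The call was lost without replicate 3. The difference of the CSC response between populations did not pass for CCND1 (adjusted p = 0.921). Under BaP and NNK the values were -0.07 (SE 0.10, adjusted p = 0.738) and 0.16 (SE 0.10, adjusted p = 0.367).

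CDKN2A itself passed under no chemical, at -0.11 under CSC (SE 0.11, adjusted p = 0.695), -0.23 under BaP (SE 0.10, adjusted p = 0.148) and -0.16 under NNK (SE 0.09, adjusted p = 0.319). The 95% intervals were -0.32 to 0.10, -0.42 to -0.03 and -0.35 to 0.02. In single populations under CSC its values ran from -0.63 in NRF2 cells to 0.53 in HCRED cells, with wells apart in both. The edgeR test of the difference between populations did not pass for CDKN2A (adjusted p = 0.258). MTAP had an across-population value near 0 under CSC (0.01, SE 0.06) and NNK (-0.0012, SE 0.06) and of -0.13 under BaP (SE 0.05, adjusted p = 0.137).

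Of the 10 members, MTAP alone passed the test that its response to a chemical differed between populations, and it did so under CSC. In the edgeR test of the interaction under CSC its adjusted p was 0.0150, where 0.141% of all genes passed. NRF2 cells went from 133.0, 132.0 and 116.8 CPM under DMSO to 85.5, 97.9 and 94.5 under CSC, with no overlap (-0.50, 95% interval -0.72 to -0.27). HCRED cells went the other way, from 101.8, 92.6 and 95.3 to 121.0, 115.8 and 115.6, again with no overlap (0.31, 95% interval 0.08 to 0.55). PIK3CA, GFP and FAT1 cells overlapped their DMSO wells (0.12, 0.07 and 0.04). The fall in NRF2 cells was not limited to CSC. Against the same DMSO wells, and again with no overlap, MTAP was lower there under BaP (-0.42, 95% interval -0.64 to -0.19). Under NNK it was -0.16 (95% interval -0.38 to 0.05), also with no overlap. Over populations, MTAP was lower in 5 of 5 under BaP and in 4 of 7 under NNK. No member passed this test under BaP, where 0.177% of all genes did, or under NNK, where 0.0881% did. At an unadjusted p under 0.05 there were 0 members under BaP and 4 under NNK (CDK6, RB1, CCND3 and CDKN2A). For CDK6 the adjusted p of edgeR under NNK was 0.152, and 0.9997 without NRG1 NNK well 2. By the DESeq2 likelihood ratio test 0 members passed under NNK, and none had an adjusted p under BaP.

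**Figure D5:**
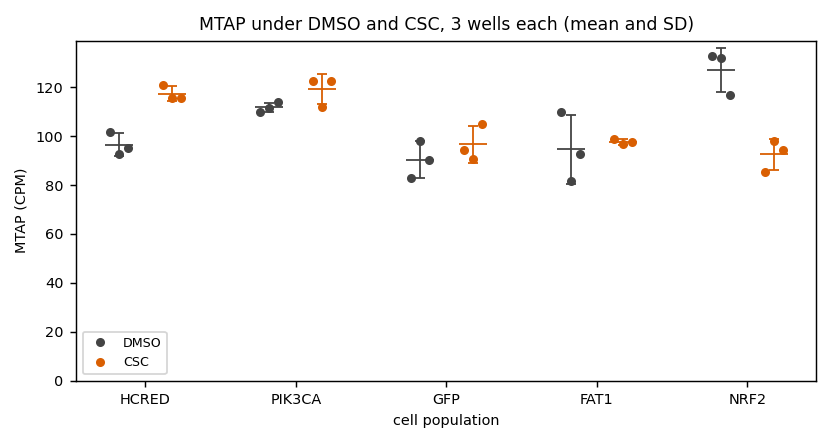
CPM of MTAP (y axis, from 0) in 3 DMSO and 3 CSC wells of the 5 populations that had both (x axis); points are wells, with mean and SD. NRF2 cells fall from 116.8 to 133.0 CPM to 85.5 to 97.9, while HCRED cells rise from 92.6 to 101.8 to 115.6 to 121.0.

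Lists of the wider pathway were read in the same comparisons. Of 17 tested E2F target genes of replication, 6 were lower and 0 higher under CSC, led by the helicase subunit MCM6 (-0.48, SE 0.08, adjusted p = 4.91e-06), RRM2 (-0.40, SE 0.07, adjusted p = 2.09e-05) and CDC45 (-0.28, SE 0.07, adjusted p = 0.00332). Under BaP 7 were lower and 0 higher, among them MCM6 (-0.45, SE 0.08, adjusted p = 1.15e-05) and MCM7 (-0.24, SE 0.06, adjusted p = 0.00311). Under NNK 2 were lower, MCM6 (-0.42, SE 0.08, adjusted p = 5.07e-05) and RRM2 (-0.32, SE 0.07, adjusted p = 0.000797). Without NRG1 NNK well 2 there were 4 lower and 1 higher. Of all genes, 5.81%, 9.16% and 7.22% were called, and 19.9% under NNK without that well. The list medians were -0.20, -0.13 and -0.09, against -0.00068, 0.01 and -0.01 over all genes.

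CCNA2, cyclin A2, also fell under each chemical, by 0.42 (SE 0.10), 0.44 (SE 0.10) and 0.29 (SE 0.08) on the log2 scale, and was the only gene called of 5 in its list. CDKN1A rose under CSC (0.50, SE 0.12, adjusted p = 0.00250) and BaP (0.46, SE 0.12, adjusted p = 0.00900). CCND2 was lower under NNK (-0.38, SE 0.11, adjusted p = 0.0210). None of the 9 or 10 tested E2F and DP factors, 10 tested 9p21 neighbours or 5 tested regulators of the locus passed under any chemical. Of 4 MTAP-linked methylation genes 0 passed. Without NRG1 NNK well 2, where 19.9% of all genes were called under NNK, KLHL9 of the 9p21 neighbours, EZH2 and SUZ12 of the regulators and PRMT5, the methyltransferase linked to MTAP, were called lower too. Basal epithelial markers were lower for 2 of 10 under CSC, 4 under BaP and 4 under NNK, where 2 were higher, and their part in these results was not tested.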

How the data were processed

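Polyadenylated RNA of AALE wells was read by 3′ digital gene expression. Per the paper's methods and the labels, the authors aligned reads to RefSeq transcripts of hg19 with BWA 0.7.10 and kept 1 count per UMI, gene and well. The deposited values are raw counts, 1 table per well, with totals of 692446 to 1895735 in the 82 wells compared. Intervals of counts cover counting error only.

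Populations under DMSO were compared in fits of 6 wells, and chemicals across populations with population as a covariate, by limma-voom (limma 3.58.1) after TMM scaling (edgeR 4.0.16, R 4.3.3). In the population fits of 6 wells the residual degrees of freedom were 4. The prior ones ran from 40.5 in GFP against HCRED to infinite in FGFR1 against HCRED. The variance used for a gene thus came mostly from all genes together and little from its own wells. Genes with a mean count above 1 were tested, with Benjamini-Hochberg adjustment and a threshold of 0.05. Differences among populations and of responses between them were tested by the quasi-likelihood F test of edgeR. DESeq2 1.42.0 and other settings served as alternatives, and the fits were tested on simulated data. Of genes changed by 1 on the log2 scale, the fit of 6 wells recovered 27.5%, and of those changed by 2, 67%. For the NNK fit of 42 wells these shares were 74% and 95.5%, and for its test of responses between populations 35.5% and 67.5%. In that last case the change was put into GFP, FAT1 and NRF2 cells only. The simulated counts had the same spread setting for every gene and no library standing apart like NRG1 NNK well 2. The shares in the real wells may thus differ. A gene that did not pass is thus not shown to be unchanged. The 13 wells with 2-digit replicate numbers, whose meaning the labels do not give, entered no main comparison. Same-numbered wells did not deviate together (correlations -0.139 to 0.135 in 25 comparisons), so replicate numbers were not treated as pairs.

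The members, the lists and the fit without NRG1 NNK well 2 were chosen with earlier results of these data known. All members are named, and of each further list no more than 3 genes per direction, taken by lowest adjusted p. Some genes that this rule would name are not reported here, though the counts of their lists include them. Markers of other cell types were summed per well.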

Additional observations from a re-analysis of the deposited data

Results flagged for a closer look

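The response of MTAP to CSC differed between populations (adjusted p = 0.0150 by the edgeR quasi-likelihood F test), with NRF2 cells lower by -0.50 and HCRED cells higher by 0.31 on the log2 scale, each in 3 of 3 wells against 3 DMSO wells. Over the alternatives the adjusted p ran from 0.00912 with median-ratio size factors to 0.0497 by the DESeq2 likelihood ratio test, with 0.0203 without a filter on the mean count. MTAP in NRF2 cells was also lower under BaP (-0.42) and NNK (-0.16) against the same DMSO wells.

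The wells with 2-digit replicate numbers gave 3 signals outside the comparisons, each above all DMSO wells of the same population. CCND1 had a mean of 22 CPM in 2 such wells of FGFR1 cells under CSC (19.1 and 24.9) against 10.5 to 16.6 under DMSO. It had a mean of 69.0 CPM in 2 wells of NRG1 cells under CSC (56.8 and 81.2) against 41.5 to 51.1. In the 3 such wells of CDKN2A cells under CSC, CCND1 overlapped the DMSO wells, with a mean of 46.0 CPM against 51.7. CDKN2C had a mean of 19.2 CPM in 2 wells of CDKN2A cells under NNK (16.6 and 21.7) against 6.69 to 16.6. The labels do not say what a 2-digit number marks, and the differences were not tested.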

How the results depend on the processing

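Of 237 recomputed log2 fold changes of called members, 203 kept the call, 34 lost it and 0 reversed, and 146 of 169 recomputed counts of members stayed within 1.5 times. The calls lost under no alternative were CDKN2A and CCND1 in CDKN2A against GFP cells, CDKN2A in FAT1 against GFP cells, and CCND1 in GFP, NRF2 and FGFR1 against HCRED cells. DESeq2 gave no adjusted p for CCND1 in NRF2 cells, for CDKN2C in GFP against HCRED cells or for any member in the difference of the BaP response, and these stand in no count. For the counts that moved, the cause was not tested. In CDKN2A against GFP cells 3 members became 5 with median-ratio size factors, 8 with DMSO, BaP and NNK wells in the fit, and 2 to 5 with a well left out. In CDKN2A against HCRED cells 2 became 0 by DESeq2, 1 with median-ratio size factors and 1 without a filter. They became 5 with DMSO, BaP and NNK wells in the fit, and 0 to 3 with a well left out. With all chemicals FAT1 against GFP went from 1 to 3 and PIK3CA against HCRED from 0 to 1. BaP went from 2 to 1 in a single fit over all groups, and the difference of the NNK response from 0 to 1 (CDK6) without a filter. With a replicate left out, members called ranged from 0 to 3 under CSC, 0 to 1 under BaP and 0 to 3 under NNK. Over all genes the calls ran from 1247 to 3496 (2067 in the report) in CDKN2A against GFP, 943 to 2756 (1646) in CDKN2A against HCRED, 856 to 3695 (1570) in FAT1 against GFP, 659 to 2878 (1202) in GFP against HCRED, 166 to 1317 (551) in NRF2, 50 to 643 (104) in FGFR1, 70 to 372 (349) in NRG1, 306 to 1612 (607) in PIK3CA, 408 to 1035 (661) under CSC, 523 to 1872 (1036) under BaP, 258 to 2245 (819) under NNK and 2 to 97 (10) for the difference of the NNK response. CDKN1B, CDKN2B and CDKN2C rest on at most 15, 26 and 24 counts in a well, so that counting error alone makes their values the least precise of the members. RB1 had 2 to 46 counts in a well.

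The replicate block moved CDKN2A against GFP cells from 3 to 5 members, adding MTAP (adjusted p = 0.0462 by limma-voom) and CDK4 (adjusted p = 0.0347), and changed no other call of a member. The pairing was not borne out by the wells, whose same-numbered deviations had a median correlation of 0.0074.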

Other observations

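In the wells with 2-digit replicate numbers, which belong to no comparison, CDK6 had 5.74 to 7.66 CPM in 3 wells of CDKN2A cells under CSC, 8.53 and 9.20 in 2 wells of FGFR1 cells and 11.1 and 12.9 in 2 wells of HCRED cells under BaP, and 4.42 and 5.80 in 2 wells of CDKN2A cells under NNK. Each of these lay below all DMSO wells of its population. CDK6 in FGFR1 and NRG1 wells under CSC overlapped the DMSO wells, at 18.2 and 19.0 CPM and at 13.3 and 16.3. RB1 had 6.01 and 9.07 CPM in HCRED wells under BaP and 4.98 and 5.07 in CDKN2A wells under NNK, again below all DMSO wells, and overlapped them in the other 4 sets of such wells.

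Among the members, the closest pairs over the 25 groups of 3 wells were CDKN2B with CDKN1B (r = 0.67), CDK6 with RB1 (0.65) and MTAP with CDK4 (0.64), and the most opposed pair was CCND1 with CDKN1B (-0.61).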
